A study of Homo sapiens with 8 samples.

Results

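ACTG2 encodes the gamma smooth muscle actin, and it was taken here with 9 other genes of the contractile actin cytoskeleton: ACTA2, ACTB, ACTG1, TAGLN, TAGLN2, MYL9, TPM1, TPM2 and CALD1. These 10 genes were listed by name because the RNA of ACTG2 had one of the largest falls in both knockdowns of the study, so ACTG2 was chosen by its log2 fold changes of each knockdown from scramble, and these contrasts give no test of it. Of the 10 genes, 9 had values in the files, out of 12939 named genes in all, and ACTA2 was not analysed here.

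The cells were CSCs, the breast cancer stem cells of the line MDA-MB-231, which is triple negative and mesenchymal in form. All groups carried GFP under the Oct4a regulatory region and an RFP vector for a stable shRNA, and were sorted as cells high in GFP and RFP. They grew in DMEM with FBS and rested overnight after the sort. Total RNA was then extracted, and the libraries were made after ribosomal RNA had been taken out. The groups were 3 libraries with scramble shRNA, the negative control, 3 with CDH2 shRNA, against neural cadherin, and 2 with Cx43 shRNA, against the gap junction protein connexin 43. According to the methods, a single clone was selected for the CDH2 knockdown, and whether it grew from a single cell is not stated. A difference from scramble can belong to that clone and cannot be told apart from the knockdown. The Cx43 and scramble lines were made by the same stable transfection and selection, so the same limit can hold for them. Whether the replicates came from separate cultures is not given in the sources used here, so p-values measure the spread between these libraries, which may be technical. The transcripts of CDH2 and GJA1 were not analysed here, and the knockdowns were not checked on them.

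Actin monomers join into filaments, and myosin II pulls on these filaments to give the cell tension. Cytoplasmic actins, ACTB and ACTG1, are made in nearly every cell, while ACTG2 and ACTA2 belong to the contractile program of smooth muscle and, for ACTA2, of myofibroblasts. Tropomyosins lie along the filament and set the access of myosin, caldesmon holds myosin back, and the regulatory light chain MYL9 turns the motor on when it is phosphorylated. Transgelins and calponins bind the filament side. Many of these genes are known targets of serum response factor (SRF) with its cofactors of the myocardin family, of which free actin monomers keep some out of the nucleus.

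SRF binds the CArG box, in which a run of A or T stands between CC and GG, and the promoter sequences were searched for it because the genes of this list are known for it. RefSeq start sites on GRCh38.p14 gave a window of 250 bases before the start for 7 of the 10 genes, and the motif reads alike on both strands. ACTG2 held 2 CArG boxes, with first bases 110 and 73 bases before the start, ACTG1 held 1, and ACTA2, TAGLN2, TPM1, TPM2 and CALD1 held no match in these windows. Over all 35116 promoter windows, 1.16% held a match and 11 windows held 2 or more. The stretch with both boxes of ACTG2 lies at chr2:73892888-73892954 on the plus strand, and that of ACTG1 at chr17:81512874-81512903 on the minus strand. They are shown because these are the members with a match, 5′ to 3′, with the CArG boxes in capitals.
ACTG2: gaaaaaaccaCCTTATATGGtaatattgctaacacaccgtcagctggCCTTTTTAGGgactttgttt
ACTG1: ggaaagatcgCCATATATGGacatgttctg
A match is a description of the letters and not a measured site of binding. Only the exact motif was searched, so a box with another letter in its run of A or T would be missed.

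Values are the authors' log2(CPM + 1), where CPM is the read count scaled to the total of the library, after they removed the effect of sequencing runs. The deposited values hold a structure that touches each result below. In every gene, the libraries of 1 replicate number deviate from their group means by amounts that cancel to at most 1e-04. Scramble 1 sits within 0.0678 of its group mean throughout, and the deviations of scramble 3 and CDH2 3 are mirror images (r = -1 across genes). The libraries are therefore not independent measures of the spread: the values vary in 2 of the 3 directions that groups and replicate numbers leave. Depth is unknown because the values hold no counts, and the number of libraries limits the precision. Of the markers listed for cell types, all 10 of mesenchymal MDA-MB-231 cells were analysed, at 0.451% to 0.482% of summed CPM over the libraries, against 3 of 10 for luminal epithelium and 2 of 10 for fibroblasts and marrow stroma. The latter 2, COL1A1 and PDGFRB, summed to 53.7 to 66.3 CPM in scramble, 40.4 to 52.6 CPM in CDH2 knockdown and 29.6 to 40.3 CPM with Cx43 shRNA. This order of groups is also that of ACTG2, but it holds for the sum and not for COL1A1, whose log2 fold change from scramble was 0.16 with CDH2 shRNA and -0.92 with Cx43 shRNA, against -0.63 and -0.72 for PDGFRB. COL1A2, COL3A1, DCN and LUM were not analysed here. Transcripts of the mitochondrial genome took 0.594% to 1.01% of summed CPM in scramble, 1.16% to 2.03% in CDH2 knockdown and 1.25% to 2.36% in Cx43 knockdown. This share was higher in every knockdown library than in every scramble library, and the part of these marker levels in the results below was not tested.

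ACTG2 lies on chromosome 2, from 73892314 to 73919865 on the plus strand of hg38 (GENCODE v44), and its MANE Select transcript, the agreed reference transcript, has 9 exons. In scramble 1, 2 and 3 its log2(CPM + 1) was 4.14, 4.60 and 3.69, or 16.7, 23.2 and 11.9 CPM. In CDH2 knockdown 1, 2 and 3 it was 2.27, 1.97 and 2.80, or 3.82, 2.93 and 5.99 CPM. In Cx43 knockdown 1 and 2 it was 1.39 and 1.23, or 1.62 and 1.34 CPM. Every knockdown library was below every scramble library, and both Cx43 libraries were below every CDH2 library. The nearest knockdown and control were CDH2 3 and scramble 3, which differed by 0.88.

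The group means of ACTG2 were 4.14 ± 0.45 (SD, n = 3) in scramble, 2.35 ± 0.42 (n = 3) in CDH2 knockdown and 1.31 ± 0.11 (n = 2) in Cx43 knockdown. The log2 fold change from scramble was -1.79 (SE 0.31) with CDH2 shRNA and -2.83 (SE 0.36) with Cx43 shRNA. Turned back to CPM, the level was 4.07-fold lower and 11.3-fold lower. Among 12939 genes this was the fall of rank 3 in CDH2 knockdown and of rank 1 in Cx43 knockdown, values that chose the gene. Since log2(CPM + 1) flattens low values, the choice of the added constant sets part of the size: with 0.1 in its place the log2 fold changes were -2.01 and -3.39. These are bulk RNA values, so fewer cells with ACTG2 and less ACTG2 RNA per cell cannot be told apart.

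**Figure D1:**
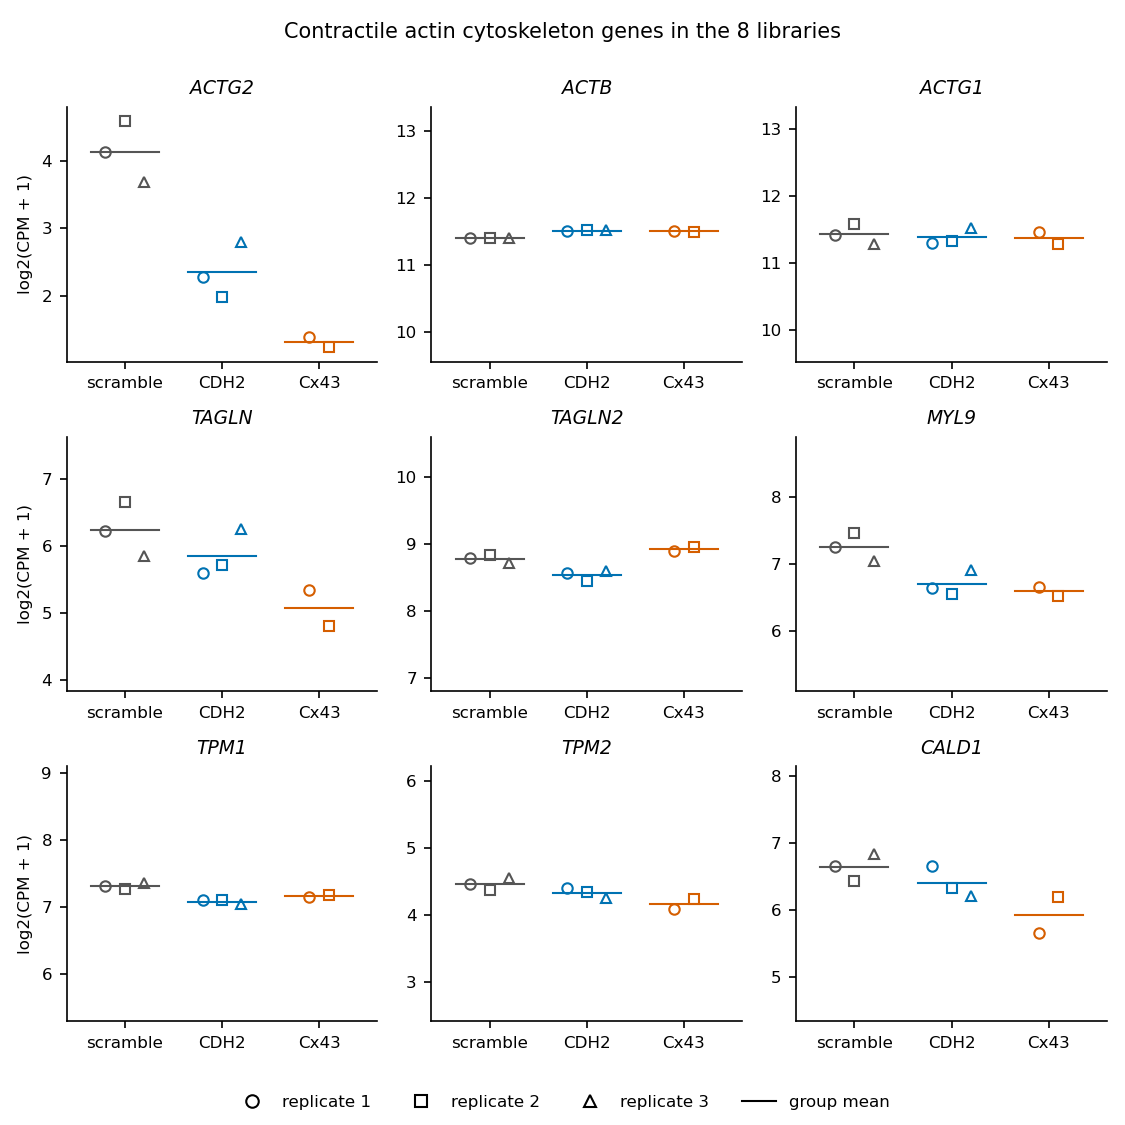
Each panel plots log2(CPM + 1) of 1 gene in the 8 libraries by shRNA group. Marker shapes give the replicate number, bars the group mean, and every panel spans the same height on the log2 scale. ACTG2 stepped from a mean of 4.14 in scramble to 2.35 and 1.31, while ACTB and ACTG1 stayed between 11.29 and 11.58 in all libraries.

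Comparing the 2 knockdowns directly asks whether ACTG2 differed between loss of the cadherin and loss of the connexin. The choice of the gene did not name this contrast, but it is the difference of the 2 contrasts that chose the gene. Its interval and p-values therefore describe a chosen gene and give no independent test. ACTG2 was higher by 1.04 on the log2 scale with CDH2 shRNA than with Cx43 shRNA (SE 0.36, 95% confidence interval 0.16 to 1.93), and the 3 and 2 libraries did not overlap. The limma adjusted p over all genes was 0.204, so the difference did not pass the threshold. No gene passed it in this comparison, 0% of the 12939 tested, although 20% had an unadjusted limma p under 0.05 and 360 genes passed without the replicate number as a block. Without that block the direct difference of ACTG2 passed the threshold. With the block it passed without scramble 2 (limma adjusted p = 0.0104), where 435 of all genes passed. It also passed without scramble 3 or CDH2 3 (limma adjusted p = 0.00811), which are the same fit, where 545 of all genes passed. It did not pass without scramble 1, CDH2 1 or CDH2 2 (limma adjusted p from 0.333 to 0.449). Without Cx43 1 or Cx43 2 the difference was 1.16 or 0.92.

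ACTB and ACTG1, the cytoplasmic actins on chromosomes 7 and 17, hold most of the signal of the list, at 85% to 88.3% of its summed CPM in every library. ACTB read 11.41, 11.41 and 11.40 in scramble 1, 2 and 3, then 11.51, 11.52 and 11.52 with CDH2 shRNA and 11.51 and 11.50 with Cx43 shRNA. All 5 knockdown libraries were above all 3 scramble libraries, by a log2 fold change of 0.11 (SE 0.07, adjusted p = 0.296 by limma) with CDH2 shRNA and 0.10 (SE 0.08, adjusted p = 0.522) with Cx43 shRNA. Its libraries varied by an SD of at most 0.0099 within a group, and the error in the test is mostly that of the genes at large, which limma lends to each gene.

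ACTG1 read 11.43, 11.58 and 11.29 in scramble, 11.30, 11.33 and 11.53 with CDH2 shRNA and 11.46 and 11.29 with Cx43 shRNA. The 3 groups overlapped, with log2 fold changes of -0.05 (95% confidence interval -0.35 to 0.25) and -0.06 (-0.41 to 0.29) from scramble. ACTG1 is the other member whose promoter window held a CArG box. The adjusted p by limma was 0.805 with CDH2 shRNA and 0.836 with Cx43 shRNA. The direction of ACTG1 against scramble is not settled: in CDH2 knockdown it turned to 0.03 under quantile normalization.

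The level per length puts the actins side by side. Per kb of the MANE Select transcript, ACTB stood at 1497 CPM in scramble and ACTG1 at 1443 CPM, and the libraries of ACTG1 (1308 to 1597) spanned those of ACTB (1493 to 1502). ACTG2 stood at 11.1 CPM per kb in scramble, 2.73 in CDH2 knockdown and 0.983 in Cx43 knockdown. Its mean was the lowest of the 9 genes in each group, and so of the 3 actins with values, although in scramble its libraries (7.92 to 15.5) overlapped those of TAGLN (14.9 to 26.2). From high to low in scramble the other levels per kb were TAGLN2 (321 CPM), TPM1 (130), MYL9 (54.7), CALD1 (19.8), TAGLN (19.7) and TPM2 (17.7), and the last 3 overlapped over their libraries. No stretch of 75 bases, the read length, was shared exactly between ACTG2 and a transcript of another gene, against 2.88% of the stretches of ACTB, mainly with pseudogenes and the POTE family. Mismatched or expectation-based sharing of reads between actins by the authors' counting was not tested.

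**Figure D2:**
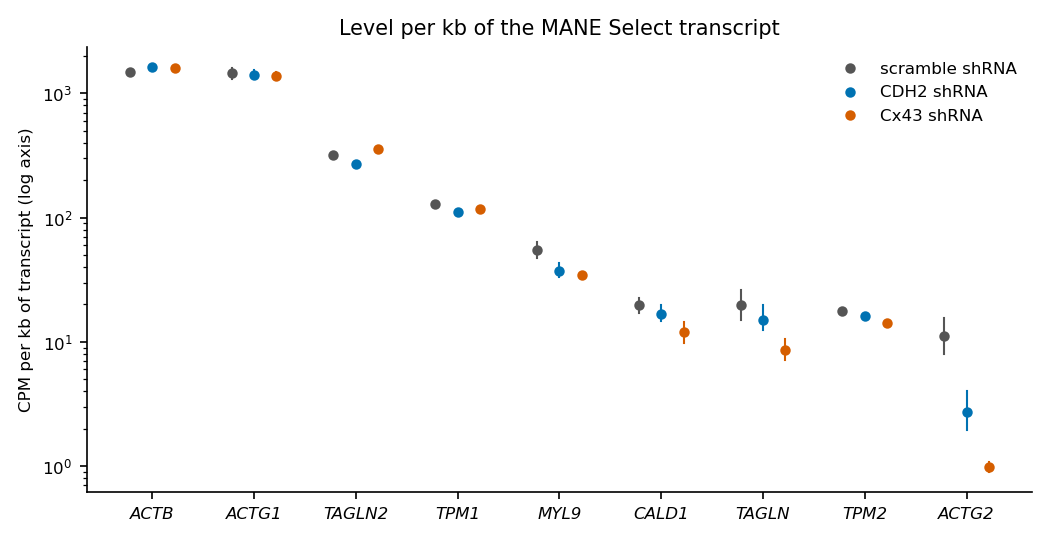
Points give the level of each gene in CPM per kb of its MANE Select transcript on a log axis, from the mean log2(CPM + 1) of the group, and lines span the libraries of the group. ACTB and ACTG1 lie at 1384 CPM per kb or more in all groups, and ACTG2 lies lowest in each, at 11.1, 2.73 and 0.983.

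Among the genes that bind actin filaments, TAGLN encodes transgelin, or SM22, an early marker of smooth muscle. TAGLN read 6.22, 6.65 and 5.84 in scramble, 5.59, 5.71 and 6.24 with CDH2 shRNA and 5.34 and 4.80 with Cx43 shRNA. Both Cx43 libraries were the lowest of all 8, while CDH2 3 lay above scramble 1 and scramble 3. The log2 fold change was -0.39 (SE 0.29, adjusted p = 0.369 by limma) with CDH2 shRNA and -1.16 (SE 0.34, adjusted p = 0.143) with Cx43 shRNA. Neither passed the threshold. Exons of TAGLN lie over those of PCSK7 on the opposite strand and of an unnamed gene, and 82.3% of the 75-base stretches of its reference transcript are shared with other genes. The use of strand in the counting is not given in the sources used here, so reads of these genes cannot be told apart.

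TAGLN2 encodes the transgelin of non-muscle cells. Its levels were 8.79, 8.85 and 8.72 in scramble, 8.57, 8.45 and 8.60 with CDH2 shRNA and 8.90 and 8.96 with Cx43 shRNA. It lay on both sides of scramble, lowest in the 3 CDH2 libraries and highest in the 2 Cx43 libraries, with no overlap among the groups. The log2 fold changes were -0.25 (SE 0.09, adjusted p = 0.0995 by limma) and 0.14 (SE 0.10, adjusted p = 0.464), and CDH2 shRNA was lower than Cx43 shRNA by 0.39 (95% confidence interval of the difference -0.64 to -0.14, adjusted p = 0.155).

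MYL9, the regulatory light chain of smooth muscle and non-muscle myosin II, read 7.26, 7.47 and 7.05 in scramble. It read 6.64, 6.56 and 6.91 with CDH2 shRNA and 6.66 and 6.53 with Cx43 shRNA. All 5 knockdown libraries were below all scramble libraries, and the knockdowns overlapped each other. The log2 fold changes were -0.56 (SE 0.15, adjusted p = 0.062 by limma) and -0.66 (SE 0.18, adjusted p = 0.125), and their direct difference was 0.11 (95% confidence interval -0.34 to 0.55).

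TPM1 and TPM2 encode tropomyosins, and CALD1 encodes caldesmon. TPM1 read 7.31, 7.27 and 7.35 in scramble, 7.10, 7.10 and 7.04 with CDH2 shRNA and 7.14 and 7.18 with Cx43 shRNA. TPM2 read 4.47, 4.37 and 4.55, then 4.41, 4.34 and 4.25, then 4.09 and 4.25 in the same order. CALD1 read 6.66, 6.44 and 6.83, then 6.66, 6.33 and 6.21, then 5.65 and 6.20. TPM1 lay below the scramble range in all 5 knockdown libraries. TPM2 and CALD1 did so in both Cx43 libraries, whose CALD1 values lay 0.55 apart, and overlapped with scramble in CDH2 knockdown. In CDH2 knockdown the log2 fold changes were -0.23 for TPM1, -0.13 for TPM2 and -0.24 for CALD1, and the limma adjusted p ran from 0.0841 to 0.422. In Cx43 knockdown they were -0.15, -0.30 and -0.72, with limma adjusted p from 0.175 to 0.374.

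**Figure D3:**
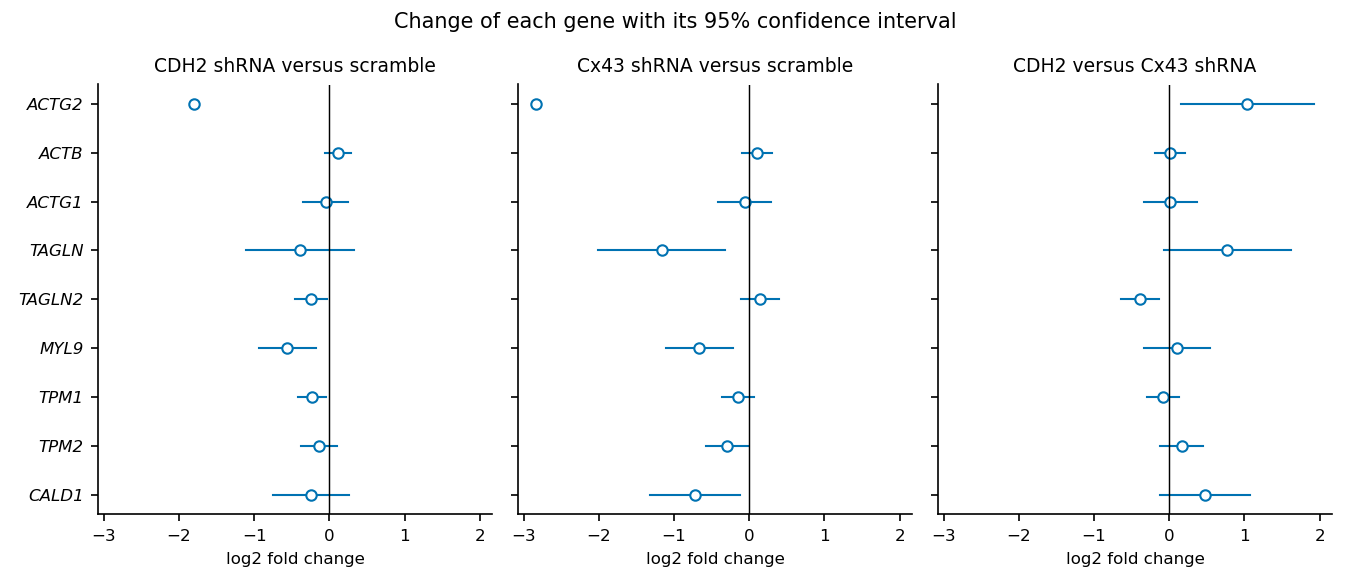
Circles give the log2 fold change of each gene in the 3 comparisons and lines its 95% confidence interval from the limma fit. No interval is drawn for ACTG2 against scramble, because these contrasts chose the gene, and ACTG2 lies at -1.79 and -2.83 there, beyond every other gene of the list.

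Over the 8 genes besides ACTG2, 0 were past threshold in any of the 3 comparisons by limma. Past threshold means an adjusted p under 0.05 and a log2 fold change of 0.73 or more in size for CDH2 shRNA, where 2.06% of all genes passed. For Cx43 shRNA the limit was 0.58, a fold change of 1.5, and 1.18% passed. Both limits are those of the study. By adjusted p alone the count was also 0 of 8, against 14.3% of all genes in CDH2 knockdown and 1.21% in Cx43 knockdown. An unadjusted p under 0.05 was reached by 3 of the 8 genes with CDH2 shRNA, 4 with Cx43 shRNA and 1 in the direct comparison, against 37.5%, 21.6% and 20% of all genes. In CDH2 knockdown 7 of 8 log2 fold changes were below 0, with a median of -0.24 against 0.01 over all genes, and in Cx43 knockdown 6 of 8, with a median of -0.22 against 0.04.

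By the ranges of the libraries, 3 of the 8 genes (TAGLN2, MYL9 and TPM1) were lower than scramble with no overlap in CDH2 knockdown, where 24.8% of all genes were, and ACTB was higher, as were 27.1% of all genes. In Cx43 knockdown 5 (TAGLN, MYL9, TPM1, TPM2 and CALD1) were lower with no overlap, against 21.4% of all genes, and ACTB and TAGLN2 were higher, against 31.4%. Between the knockdowns ACTG2, TAGLN, TPM2 and CALD1 were higher with CDH2 shRNA with no overlap (21.8% of all genes) and TAGLN2 and TPM1 were lower (29.1%). For TPM2 and CALD1 the groups nearly touched. The nearest libraries, CDH2 3 and Cx43 2, read 4.2472 and 4.2459 for TPM2 and 6.2124 and 6.1996 for CALD1. Both knockdowns were compared with the same scramble libraries.

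The count of 0 in Cx43 knockdown depends on the model. Without the replicate number as a block, 3 of the 8 genes were past threshold: TAGLN, MYL9 and CALD1. Over all 12939 genes the same change of model raised the count from 153 to 532. Leaving out scramble 3 or CDH2 3, which with the block is the same fit, also gave these 3 genes, with 730 of all genes. Leaving out scramble 2 gave 1, with 468 of all genes. In CDH2 knockdown, leaving out scramble 3 or CDH2 3 gave 2 genes, TAGLN at -0.78 and MYL9 at -0.77, while the count over all genes rose from 267 to 723.

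Within a group the genes fell into 2 orders. The genes ACTG2, ACTB, ACTG1, TAGLN, TAGLN2 and MYL9 were highest in scramble 2, lowest in scramble 3 and highest in CDH2 3, as were 40.7% of all genes. TPM1, TPM2 and CALD1 had the reverse order, as had 39.5% of all genes. The mirror image of scramble 3 and CDH2 3 in the deposited values sets a part of these orders. Compared within a replicate number, MYL9, TPM1, TPM2 and CALD1 were lower than scramble in 5 of 5 pairs, as was ACTG2, whose values chose it. ACTB was higher in 5 of 5, and TAGLN was lower in 4 of 5. The share of all genes with such counts was not computed, and pairs of both knockdowns share the scramble libraries. These counts are therefore a description.

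Summed over the list, the groups overlapped. The 9 genes took 0.896% to 0.967% of summed CPM in scramble, 0.887% to 0.957% in CDH2 knockdown and 0.876% to 0.904% with Cx43 shRNA. ACTG2, at 23.2 CPM or less, added little to these sums.

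To set these genes in their pathway, 113 further symbols of the actin cytoskeleton and of smooth muscle were listed in 8 groups by role, of which 100 genes were analysed. In CDH2 knockdown 3 of the 100 were past threshold, all lower, near the 2.06% of all genes. By limma adjusted p under 0.05 at any fold change 15 of the 100 changed, 4 higher and 11 lower, near the 14.3% of all genes. In Cx43 knockdown 1 was past threshold, near the 1.18% of all genes. The medians of the 100 genes were 0.01 and -0.02, against 0.01 and 0.04 over all genes. In the direct comparison 0 of the 100 passed by limma, and 10 had an unadjusted p under 0.05, against 20% of all genes.

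In the smooth muscle program, where 11 of 15 genes were analysed, CNN1, the calponin of smooth muscle that binds actin and slows myosin, fell in both knockdowns. It read 4.55, 4.65 and 4.41 in scramble, 3.62, 3.30 and 3.65 with CDH2 shRNA and 3.11 and 3.33 with Cx43 shRNA. No knockdown library reached a scramble library, while the knockdowns overlapped. The log2 fold change was -1.01 (SE 0.14, adjusted p = 0.0209 by limma) with CDH2 shRNA and -1.32 (SE 0.16, adjusted p = 0.0375) with Cx43 shRNA, and the knockdowns differed by 0.31 (95% confidence interval -0.09 to 0.71, adjusted p = 0.344). CNN1 was the only gene among the 100 past threshold in both. These calls were lost in the fits without scramble 1, CDH2 1, CDH2 2, Cx43 1 or Cx43 2 (adjusted p up to 0.105 and 0.31), as were those of DES and TMSB10 below.

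DES encodes desmin, the intermediate filament of muscle, and read 3.55, 3.46 and 3.63 in scramble. It read 2.45, 2.37 and 2.28 with CDH2 shRNA and 2.95 and 3.12 with Cx43 shRNA. The 3 groups did not overlap, and the order differed from that of ACTG2, since the CDH2 libraries were the lowest. DES fell with CDH2 shRNA, by 1.18 on the log2 scale (SE 0.10, adjusted p = 0.016 by limma), and was at -0.51 with Cx43 shRNA (SE 0.12, adjusted p = 0.0984). Directly compared, CDH2 shRNA was lower by 0.67 than Cx43 shRNA (95% confidence interval of the difference -0.96 to -0.39, adjusted p = 0.121), which did not pass with the block but did without it.

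TGFB1I1, a focal adhesion adaptor also known as Hic-5, changed by adjusted p alone in CDH2 knockdown, at -0.38 (adjusted p = 0.0468 by limma). The median of the 11 genes was -0.08 with CDH2 shRNA and -0.14 with Cx43 shRNA. Defining genes of mature smooth muscle such as MYH11, LMOD1, SYNPO2 and MYOCD were not analysed here. Of the 10 markers listed for smooth muscle and pericytes, 5 were analysed (DES, CNN1, RGS5, MCAM and CSPG4), with summed levels of 195.1 to 199.6 CPM in scramble, 151.5 to 154.9 in CDH2 knockdown and 180.8 to 185.3 in Cx43 knockdown. Among the 5 only DES and CNN1 were past threshold in either knockdown.

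Actin assembly and turnover, with 30 genes analysed, had 1 gene past threshold. TMSB10, a thymosin that binds actin monomers, read 10.21, 10.37 and 10.05 in scramble, 9.34, 9.24 and 9.53 with CDH2 shRNA and 9.70 and 9.65 with Cx43 shRNA. The groups did not overlap. TMSB10 fell by 0.84 on the log2 scale with CDH2 shRNA (SE 0.13, adjusted p = 0.0223 by limma), and was at -0.54 with Cx43 shRNA (SE 0.15, adjusted p = 0.126).

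By limma adjusted p alone, 9 of the 30 changed with CDH2 shRNA, where 14.3% of all genes did. The formins DIAPH1, DIAPH2 and DIAPH3, which build straight filaments, rose by 0.40, 0.56 and 0.43 on the log2 scale (limma adjusted p from 0.0324 to 0.0418). The genes that fell, besides TMSB10, were TMSB4X, a further monomer-binding thymosin, at -0.56, DSTN, which cuts and unravels filaments, at -0.49, GSN, the severing protein gelsolin, at -0.40, and ARPC3 and ARPC1B of the branching complex Arp2/3, at -0.40 and -0.37 (limma adjusted p from 0.0321 to 0.0418). With Cx43 shRNA 0 of the 30 changed by limma, and 6 had an unadjusted p under 0.05, as had 21.6% of all genes. TMSB4X had the largest difference, at -0.58 (adjusted p = 0.104).

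Non-muscle myosin II had no gene past threshold. Of its 7 genes, MYL6, the essential light chain, changed by -0.58 (limma adjusted p = 0.0359) and MYL12A, a regulatory light chain, by -0.42 (adjusted p = 0.0335) with CDH2 shRNA, and neither reached the fold change of the threshold. The median of the 7 was -0.41 with CDH2 shRNA and -0.04 with Cx43 shRNA. The heavy chain gene MYH14 had the largest difference with Cx43 shRNA, at -0.39 (limma adjusted p = 0.175). Exons of MYL6 lie over those of its neighbour MYL6B on the same strand, so their reads are uncertain.

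The remaining groups had no gene past threshold in either knockdown by limma. Among 18 crosslinkers and focal adhesion genes the largest differences were those of VCL, or vinculin, at 0.56 with CDH2 shRNA (limma adjusted p = 0.0675), and of MSN, or moesin, at 0.48 with Cx43 shRNA (adjusted p = 0.122). Of these 18 genes 0 changed by adjusted p, and 5 with CDH2 shRNA and 3 with Cx43 shRNA had an unadjusted p under 0.05, against 37.5% and 21.6% of all genes. FLNC, a filamin, differed most between the knockdowns among the 100 genes, at 0.81 higher with CDH2 shRNA (adjusted p = 0.129).

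Of the factors and targets of SRF, 17 genes were analysed, and 1, TGFB1I1, changed by adjusted p with CDH2 shRNA, against 14.3% of all genes. Their medians were 0.07 with CDH2 shRNA and 0.04 with Cx43 shRNA. ACTG2, the other genes of the main list and CNN1 are not among these 17, so the medians do not cover them. FOS, an early target of SRF, had the largest difference with Cx43 shRNA, at 0.53 (limma adjusted p = 0.327). Among 5 other tropomyosins, calponins and tropomodulins, TMOD3, a cap of the filament end, had the largest difference, at 0.34 (adjusted p = 0.13) and 0.20 (adjusted p = 0.517). The 4 other actins and actin-like genes that were analysed had ACTR1B at -0.17 (adjusted p = 0.178) with CDH2 shRNA and ACTL6A at 0.21 (adjusted p = 0.227) with Cx43 shRNA. The muscle actins ACTA1 and ACTC1 were not analysed here.

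**Figure D4:**
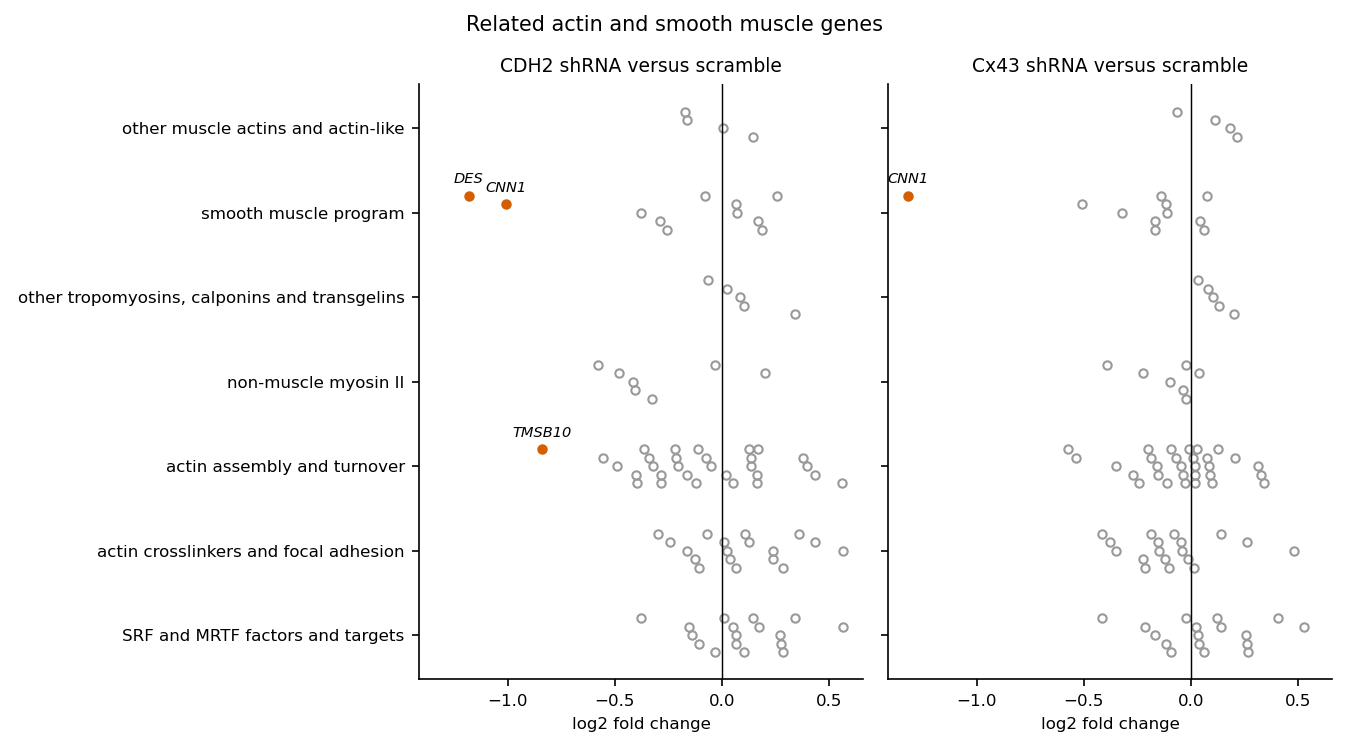
Each circle is 1 gene of 7 of the 8 groups of related genes, placed by its log2 fold change from scramble, and filled circles with names are past threshold. DES, CNN1 and TMSB10 stand to the left in CDH2 knockdown and CNN1 in Cx43 knockdown. Genes in more than 1 group are drawn in each.

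The genes whose pattern was most like that of ACTG2 were found by Pearson's r over the 8 libraries, among 868 genes whose highest and lowest library differed by at least 1 on the log2 scale. They were RASD1, a small GTPase induced by glucocorticoids (r = 0.9971), CSF1R, the receptor of macrophage colony stimulating factor (0.9956), TIMP1, an inhibitor of metalloproteinases (0.9902), ID2, an inhibitor of basic helix-loop-helix factors (0.9886), and RRAD, a small GTPase of muscle (0.9884). The 8 points lie in 3 groups and share their libraries and the run correction, so r is a description. RASD1 read 2.95, 3.19 and 2.72 in scramble, 1.65, 1.54 and 1.96 with CDH2 shRNA and 1.20 and 1.07 with Cx43 shRNA, the same order of libraries as ACTG2. CSF1R spanned 2.20 to 2.45, 1.61 to 1.82 and 1.39 to 1.46 in the 3 groups. None of the 10 listed genes and none of the 100 related genes was among the 5.

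**Figure D5:**
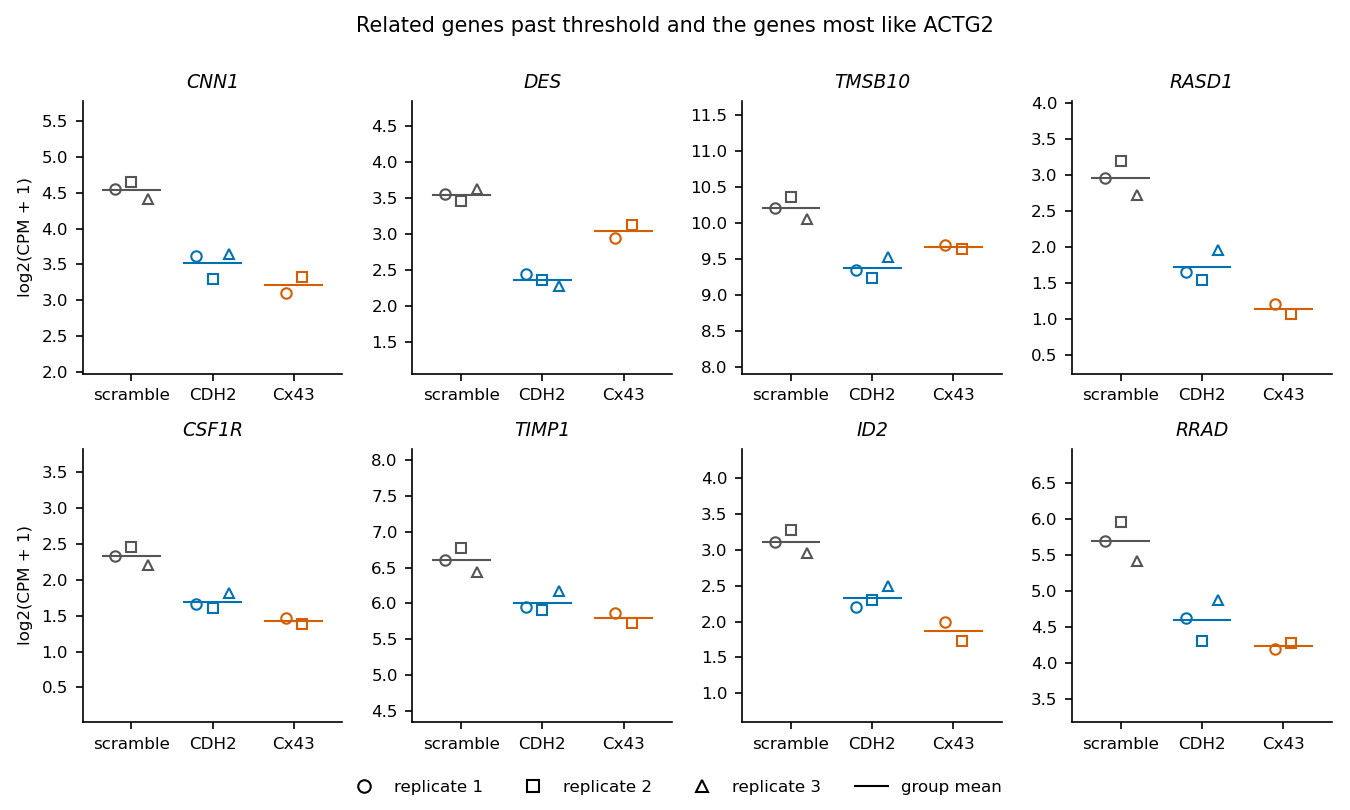
Panels plot log2(CPM + 1) in the 8 libraries for CNN1, DES and TMSB10, past threshold in a knockdown, and for the 5 genes most like ACTG2. Marker shapes give the replicate number and bars the group mean. DES is lowest in CDH2 knockdown, at 2.28 to 2.45, and RASD1 is lowest in Cx43 knockdown, at 1.07 and 1.20.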

How the data were processed

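RNA-Seq values of 8 libraries were used. Per the methods, the authors sequenced single reads on a NextSeq 500, aligned them to hg38 in Partek Flow (STAR 2.6.1 per the submitters' processing notes), took the log of CPM + 1, corrected for sequencing runs by a log normal model with shrinkage in Partek, and left out low genes. Per the methods, the authors also removed 1 sample of low quality, most of whose reads fell between genes or in introns, and its group is not stated. The deposited values are log2(CPM + 1), and 1 line with no gene name was left out.

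Tests used limma 3.58.1 (lmFit and eBayes, R 4.3.3) on all 8 libraries, with group and, as a block, replicate number, since the authors removed the run effect. This left 3 residual and 2.84 prior degrees of freedom. The values vary in only 2 of these 3 residual directions, so the residual count is too high. Every SE, confidence interval and p-value given here rests on it. The pairing comes from the replicate numbers of the labels, and within each number the deviations sum to 0 within 1e-04. P-values are two-sided, adjusted by Benjamini-Hochberg over 12939 genes. No filter or pseudocount was added. The fits were also run on simulated data with independent noise. These data lack the mirrored structure of the deposited values, so they cannot show how that structure affects the p-values.

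Named genes are the 10 members, related genes past threshold or, where a list has none, its largest difference in each knockdown, and the 5 genes most like ACTG2. Genes of single lists that changed by adjusted p alone, and FLNC, were named after their values were seen. Of the 8 groups of related genes, 1 enters the counts over the 100 genes and is not reported here by itself. The members and lists were chosen with earlier results of these data known. Positions, lengths and overlaps are from GENCODE v44 and promoter sequences from RefSeq (GRCh38.p14).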

Additional observations from a re-analysis of the deposited data

How the results depend on the processing

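The 9 genes with values kept their direction under most alternatives. Leaving out ACTG2 against scramble, there were 399 values, 1 for each result and alternative setting. Of these, 365 kept direction and side of the threshold, 23 passed it newly and 11 turned direction, all of ACTG1 or ACTB near 0. Part of this agreement was fixed in advance. None of the results counted passed in the main fit, so none could lose a call. Some settings, such as a filter on genes, cannot change a log2 fold change. ACTG1 turned to 0.0285 under quantile normalization in CDH2 knockdown and to -0.0564 in the direct comparison with only the groups compared. Leaving out 1 library, it ran from -0.188 to 0.0705 in CDH2 knockdown, from -0.194 to 0.0855 in Cx43 knockdown and from -0.12 to 0.148 in the direct comparison, where ACTB ran from -6e-04 to 0.0204.

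Without the replicate block, 3 of the 8 genes besides ACTG2 passed the threshold in Cx43 knockdown, against 0 with it. In the direct comparison 1 gene of the list and 2 related genes passed, against 0 with the block. The 1 gene was ACTG2, for which this comparison gives no independent test. All genes past threshold rose from 153 to 532 in Cx43 knockdown and from 0 to 360 in the direct comparison. A fit of only the groups compared gave the same 3, 1 and 2, and 0 related genes in CDH2 knockdown and 4 in Cx43 knockdown. Adjusted p alone gave 15 related genes in CDH2 knockdown, and the filter that keeps 75% of genes left 0 in Cx43 knockdown. That filter drops ACTG2 and DES, which then have no value. Fits without 1 library are counted here where at least 2 libraries remained in each group. In CDH2 knockdown they gave 0 to 2 genes of the list and 0 to 5 related genes. In Cx43 knockdown they gave 0 to 3 and 0 to 4, and in the direct comparison 0 to 2 and 0 to 3. The list leaves out ACTG2 in these counts except in the direct comparison, where ACTG2 is counted. CNN1 lost its call in both knockdowns, and DES and TMSB10 in CDH2 knockdown, without scramble 1, CDH2 1, CDH2 2, Cx43 1 or Cx43 2, and TMSB10 also without scramble 2. The log2 fold change of CNN1 stayed between -1.13 and -0.83 in CDH2 knockdown and between -1.48 and -1.16 in Cx43 knockdown over the 8 fits. Of all genes, the fits that left at least 2 libraries in each group called 0 to 723 in CDH2 knockdown and 0 to 730 in Cx43 knockdown. In the direct comparison they called 0 to 545. The highest counts were those without scramble 3 or CDH2 3, and these are the same fit. Only these libraries have replicate number 3, and the block takes up whichever is left. Why this fit called more genes was not tested.

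With 1 more model term for the direction in which the values hold no residuals, chosen after seeing the data, the counts for the list and the related genes were the same, while those over all genes fell from 267 to 231 in CDH2 knockdown and from 153 to 82 in Cx43 knockdown. Of all genes, the other alternatives called 0 to 1846 in CDH2 knockdown (267 in the report), 4 to 741 in Cx43 knockdown (153) and 0 to 414 in the direct comparison (0). Depth is unknown and could not be weighed.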
